A study of Mus musculus with 2 samples.

Results

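The miR-29 family comprises 4 of the 2202 miRNA genes that were counted in this series, namely Mir29a, Mir29b-1, Mir29b-2 and Mir29c. They were taken by symbol in GENCODE M21, the gene annotation behind the deposited counts, and all 4 have a row in each library. Small RNA libraries (inserts under 30 nt, per the labels) were prepared from total RNA of whole hearts of female B6CASTF1/J mice, the first-generation offspring of a C57BL/6 and CAST cross, at an age of 36 days. One free-text label gives that age in months, and the day value of the age field is used. There is 1 group of 2 libraries, biological replicates 1 and 2 of the labels, called heart 1 and heart 2 below, with no treatment, no other genotype and no control group, so the data answer how much of each miR-29 gene was counted and by how much one heart differed from the other. Both records carry 1 shared donor code although each heart has its own sample record and animal number, and whether the code stands for a strain or an animal is not stated.

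MicroRNAs are short RNAs cut from a hairpin precursor. One strand of the hairpin is loaded into an Argonaute protein and guides it to messenger RNAs that pair with its seed, bases 2 to 8 from the 5′ end. The miR-29 family is known for repressing genes of the extracellular matrix, among them collagens, elastin and fibrillin. In mouse hearts it is known to be more abundant in fibroblasts than in cardiomyocytes and to fall in the border zone of an infarct, which is why it is called antifibrotic. Matrix genes were not measured here.

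The family members are told apart by few bases, and these bear on what could be counted. The mature sequences of the 3p arms, the arms that carry the family's seed, are given 5′ to 3′ with the seed in capitals (RefSeq, GRCm38.p6).
miR-29a-3p: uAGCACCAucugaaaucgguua
miR-29c-3p: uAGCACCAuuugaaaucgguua
miR-29b-3p: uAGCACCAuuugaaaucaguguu
All 3 share the seed AGCACCA, and no other entry among the 1679 mature sequences of the RefSeq table holds it. Counted from the 5′ end, miR-29a-3p and miR-29c-3p differ by 1 substitution, C10U, and are both 22 nt long. miR-29c-3p and miR-29b-3p are identical over their first 17 bases and differ by G18A, U21G and A22U, and miR-29b-3p is 1 base longer (23 nt). miR-29b-3p ends in AGUGUU, a terminal hexamer known from human HeLa cells to direct this miRNA to the nucleus. Of the 1679 mature sequences, 2 (0.119%) end in these 6 letters, the other being miR-92b-5p.

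The mature miR-29b-3p is encoded identically by Mir29b-1 and Mir29b-2. The longest run that the pair of hairpins share is 25 nt and holds the whole mature arm, shown in capitals.
run shared by Mir29b-1 and Mir29b-2: ucUAGCACCAUUUGAAAUCAGUGUU
A read that lies within this run maps to both genes. The deposited tables keep reads with several mapping places in a row of their own, with 2355334 reads (42.0% of all reads) in heart 1 and 1985503 (39.8%) in heart 2, and assign them to no gene. The counts of Mir29b-1 and Mir29b-2 are therefore no measure of miR-29b-3p, and how many of the reads with several places were miR-29b-3p was not analysed here. Neither mature arm of Mir29a or Mir29c occurs in another hairpin of the RefSeq table. No run of 18 nt of the Mir29a hairpin recurs in another hairpin, while 5 of 71 such runs of Mir29c do, against 11 of 54 of Mir29b-1 and 8 of 64 of Mir29b-2. The Mir29c hairpin shares up to 22 nt with Mir29b-1 and up to 19 nt with Mir29b-2, whereas Mir29a shares at most 14 nt with any other member.

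The 5p arms differ between all 4 genes, in the seed as well, and none of them occurs in another hairpin of that table. They are shown because they are the mature arms that can be placed at one of the 29b genes alone.
miR-29b-1-5p: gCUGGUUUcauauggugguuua
miR-29b-2-5p: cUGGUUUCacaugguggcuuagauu
miR-29a-5p: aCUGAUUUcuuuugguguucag
miR-29c-5p: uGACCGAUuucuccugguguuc
The tables give 1 count per gene and do not separate the arms, so whether the reads of a gene were 5p or 3p is not known.

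The genes form a pair of clusters on different chromosomes (mm10, 1-based). Mir29b-1 (ENSMUSG00000065604.2, chr6:31063023-31063093) and Mir29a (ENSMUSG00000065610.1, chr6:31062660-31062747) lie on the minus strand, with 275 bases between the hairpins and Mir29b-1 upstream. In GENCODE M21 they lie in no protein-coding gene, and the first 2 bases of Mir29b-1 overlap the lincRNA Gm27019. Mir29b-2 (ENSMUSG00000065412.3, chr1:195037040-195037120) and Mir29c (ENSMUSG00000065548.1, chr1:195037547-195037634) lie on the plus strand, 426 bases apart with Mir29b-2 upstream. Both sit in an exon of a retained-intron transcript of the noncoding host gene A330023F24Rik. On the other strand they face the 3′ untranslated region of a transcript of Cd46, a complement regulator. No read was counted on the strand opposite to any of the 4 genes in either library, which allows up to 3 reads per gene and library.

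**Figure D1:**
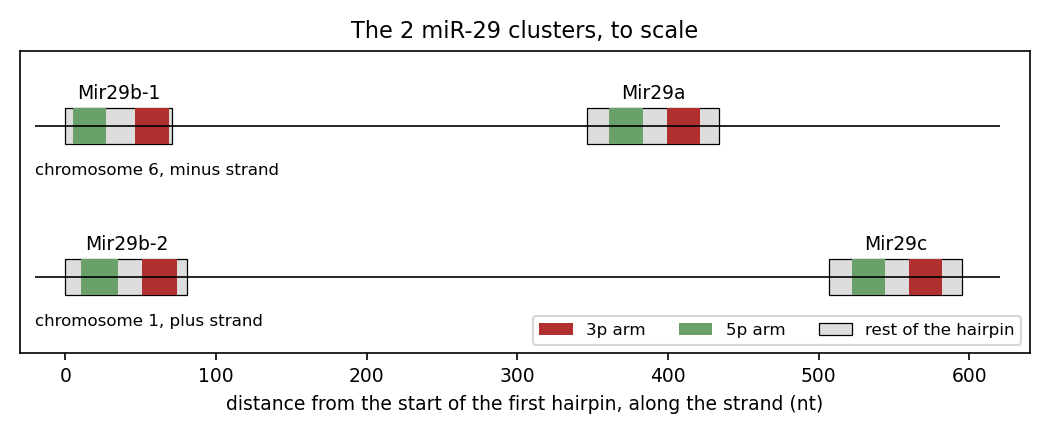
Map of the 2 miR-29 clusters, with distance in nt from the first base of the upstream hairpin on the x axis and 1 row for each cluster. Hairpins are boxes, with the 5p arm in green and the 3p arm in red; the hairpins are 275 bases apart on chromosome 6 and 426 bases apart on chromosome 1, and a 29b gene comes first in both.

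The table of heart 1 holds 5606848 reads and that of heart 2 4990632, of which 2074961 and 1766135 were assigned to miRNA genes on the gene's strand. Levels are counts per 1000000 of these assigned reads (CPM). A single read is worth 0.482 CPM in heart 1 and 0.566 CPM in heart 2. Each read is taken as 1 short RNA, so counts were not divided by length, and unequal capture of different sequences was not measured. The cardiomyocyte marker genes (Mir208a, Mir499 and others) had 5 of 7 members detected (at least 2 CPM in each library), against 15.2% of all 2202 genes. Among the fibroblast markers, 1 gene, Mir199a-1, had no read in either library. Reads with several mapping places are in no gene's count, so a marker gene with few or no reads need not lack its mature miRNA. Heart tissue mixes cell types, and fewer cells of a type and less RNA per cell cannot be told apart in these libraries.

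All 4 members were detected, with at least 2 CPM in each library, against 15.2% of all 2202 genes. The family held 7400 counts (0.357% of assigned reads) in heart 1 and 7765 (0.440%) in heart 2, which is 3981 ± 587 CPM (SD, n = 2). Most of this came from 1 gene. Mir29a made up 90.8% of the reads assigned to the 4 genes (95% exact interval 90.1 to 91.5) in heart 1 and 95.7% (95.3 to 96.2) in heart 2. These shares leave out an unknown number of miR-29b-3p reads that mapped to both 29b genes.

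Mir29a, whose 3p arm is known to repress collagen genes, had 6721 counts (3239 CPM, exact interval 3162 to 3317) in heart 1 and 7433 counts (4209 CPM, 4114 to 4305) in heart 2. Its mean was 3724 ± 686 CPM, and it ranked 33 of 2202 genes in heart 1 and 29 in heart 2. Ranks here and below are by uniquely placed reads, so genes whose reads map to several places may rank too low. Its neighbour on chromosome 6, Mir29b-1, had 48 counts (23.1 CPM, 17.1 to 30.7) in heart 1 and 23 counts (13.0 CPM, 8.26 to 19.5) in heart 2, with a mean of 18.1 ± 7.15 CPM and ranks of 213 and 243. Within this cluster nearly all counted reads thus lay at Mir29a, while any miR-29b-3p reads that mapped to both 29b genes are not in the count of Mir29b-1.

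Mir29c, the more abundant gene of the chromosome 1 cluster, had 603 counts (291 CPM, exact interval 268 to 315) in heart 1 and 290 counts (164 CPM, 146 to 184) in heart 2. Its mean was 227 ± 89.4 CPM, with ranks of 101 and 121. Mir29b-2 had 28 counts (13.5 CPM, 8.97 to 19.5) in heart 1 and 19 counts (10.8 CPM, 6.48 to 16.8) in heart 2, with a mean of 12.1 ± 1.93 CPM and ranks of 235 and 259. It was the lowest member in both hearts.

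The order of the levels was Mir29a, Mir29c, Mir29b-1, Mir29b-2 in both libraries. The steps down to Mir29c and to Mir29b-1 are larger than the spread between the hearts. The step between the 29b genes is not: the means differ by less than the SD of Mir29b-1, and the value of Mir29b-1 in heart 2 lies below that of Mir29b-2 in heart 1. Counts of the 29b genes leave out miR-29b-3p reads that mapped to both, so the steps down to them are steps in uniquely placed reads only.

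**Figure D2:**
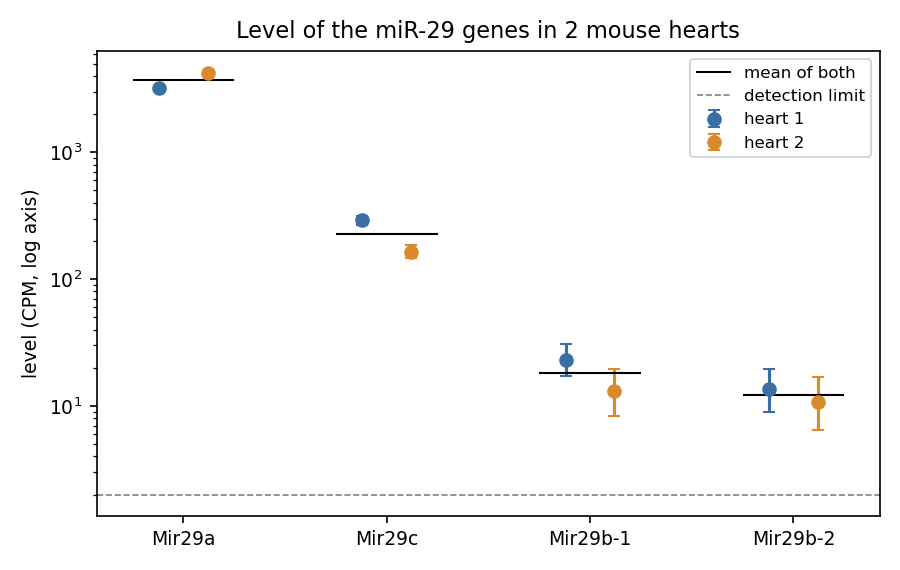
Level of each miR-29 gene in CPM (log axis) in heart 1 and heart 2, with exact 95% intervals for counting error, the mean as a bar and the detection limit of 2 CPM as a dashed line. Mir29a lies at 3239 CPM in heart 1 and 4209 CPM in heart 2, Mir29c between 164 and 291 CPM and the 29b genes between 10.8 and 23.1 CPM.

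The split of the uniquely placed reads between the 2 loci differed between the hearts, and this does not depend on how the libraries are scaled. Reads of miR-29b-3p that mapped to both loci are not part of it. Reads of the Mir29a/Mir29b-1 cluster exceeded those of the Mir29c/Mir29b-2 cluster 10.7 times (exact interval 9.89 to 11.7) in heart 1 and 24.1 times (21.5 to 27.1) in heart 2. The ratio in heart 1 was 0.445 times that in heart 2 (exact interval 0.385 to 0.512). Nearly all of these reads were Mir29a and Mir29c. Mir29a over Mir29c was 11.1 (10.3 to 12.1) in heart 1 and 25.6 (22.8 to 28.9) in heart 2, so the intervals do not overlap, and the share of Mir29c in the reads assigned to the 4 genes was 8.15% (7.54 to 8.80) in heart 1 and 3.73% (3.32 to 4.18) in heart 2.

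In uniquely placed reads, neighbours within the chromosome 6 cluster differed in their proportion too. The counts of Mir29b-1 and Mir29b-2 leave out reads of their shared mature arm that mapped to both genes. Ratios with either gene are therefore no measure of the proportion of the mature miRNAs. Mir29a over Mir29b-1 was 140 (105 to 190) in heart 1 and 323 (215 to 510) in heart 2, a ratio between the libraries of 0.433 (0.251 to 0.727). The pair Mir29c and Mir29b-1, on different chromosomes, kept nearly the same proportion: Mir29c over Mir29b-1 was 12.6 in both, with intervals of 9.35 to 17.2 in heart 1 and 8.24 to 20.2 in heart 2. The interval of that difference, 0.567 to 1.71, is wide. Mir29c over Mir29b-2, neighbours on chromosome 1, was 21.5 (14.7 to 32.7) in heart 1 and 15.3 (9.60 to 25.7) in heart 2, and the interval of the difference, 0.731 to 2.67, includes 1. Mir29a over Mir29b-2 was 240 (166 to 362) in heart 1 and 391 (250 to 650) in heart 2, with overlapping intervals and a ratio between the libraries of 0.614 (0.324 to 1.14). Mir29b-1 over Mir29b-2 was 1.71 (1.05 to 2.84) in heart 1 and 1.21 (0.631 to 2.35) in heart 2.

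**Figure D3:**
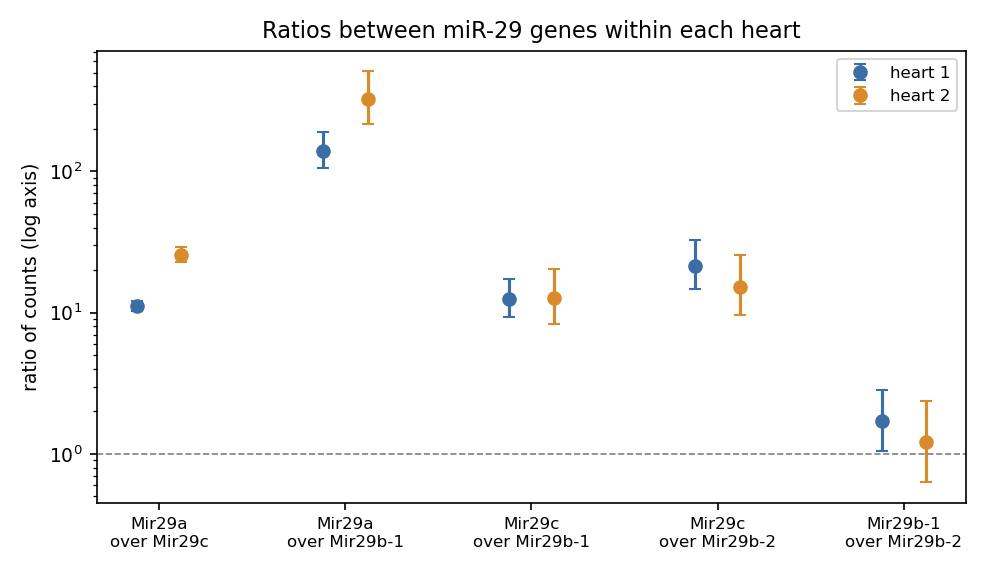
Ratio of counts for 5 of the 6 pairs of miR-29 genes (log axis; Mir29a over Mir29b-2 is not drawn) in heart 1 and heart 2, with exact 95% intervals. The intervals of the 2 hearts are apart for Mir29a over Mir29c and for Mir29a over Mir29b-1. They overlap for the 3 pairs without Mir29a, as they do for Mir29a over Mir29b-2. Counts of Mir29b-1 and Mir29b-2 leave out reads that mapped to both genes, so ratios with either gene compare uniquely placed reads only.

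Replicate 1 was then set against heart 2 for each gene, after TMM scaling of the library sizes (trimmed mean of M values), with an exact two-sided binomial test adjusted by Benjamini-Hochberg over the 359 genes with 10 or more counts. The test asks whether 2 libraries differ beyond counting error and compares no conditions. Of the 4 members, 2 were higher in heart 1, against 24.2% of all genes tested, and 1 was higher in heart 2, against 20.1%. Mir29c was 1.99-fold higher in heart 1 (exact interval 1.73 to 2.30), a log2 ratio of 0.99 with an adjusted p of 2.1e-22 in the exact binomial test. Mir29b-1 was 2.00-fold higher in heart 1 (1.19 to 3.44), a log2 ratio of 0.98 with an adjusted p of 0.0150 in the exact binomial test; over the alternatives its adjusted p lay between 0.0104 and 0.0497. Mir29a stood at 0.866 times its level in heart 2 (0.837 to 0.895), a log2 ratio of -0.21 with an adjusted p of 4.8e-17 in the exact binomial test. Mir29b-2 did not pass the threshold, with a ratio of 1.41 (0.760 to 2.67), a log2 ratio of 0.49 and an adjusted p of 0.448 in the exact binomial test.

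These differences were within what other genes showed between the 2 hearts. Over the 359 genes the median absolute log2 ratio was 0.42 and the SD of the log2 ratio 1.12. An absolute ratio at least as large was found for 20.1% of genes in the case of Mir29c, 21.2% for Mir29b-1, 45.4% for Mir29b-2 and 70.8% for Mir29a. The median log2 ratio of the 4 members was 0.73, against 0.01 over all genes tested, while their summed counts went the other way, at 0.912 times the level in heart 2 (0.884 to 0.942), since Mir29a holds most of them. Library size alone lowers each log2 ratio by 0.17, which turns the background to 18.7% higher in heart 1 and 28.7% in heart 2, and with DESeq2 size factors it was 26.7% and 16.7%. The members' calls and directions were the same under all 3 scalings.

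**Figure D4:**
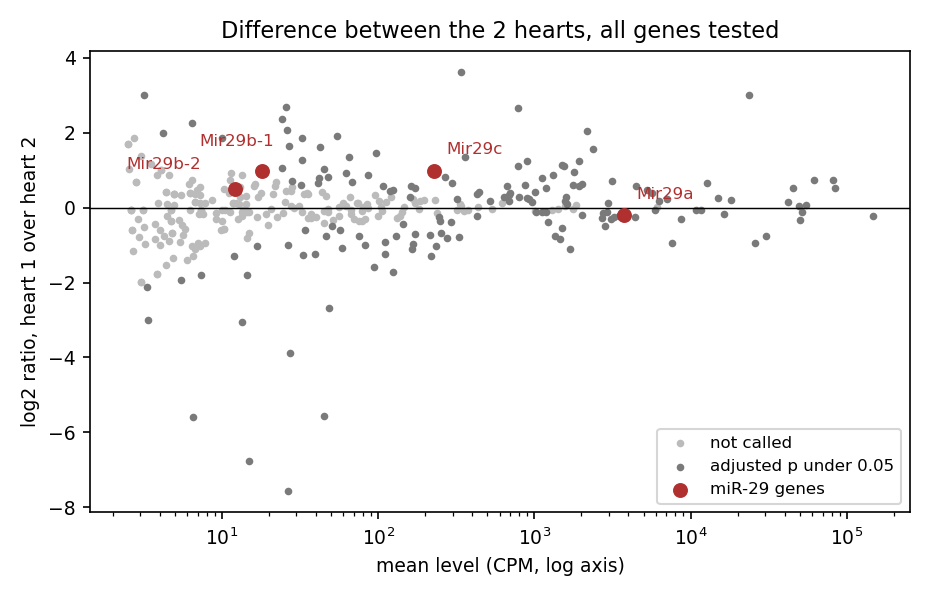
Log2 ratio of heart 1 over heart 2 against mean level (CPM, log axis) for the 359 genes tested, with genes past an adjusted p of 0.05 in dark grey and the miR-29 genes in red. Mir29c and Mir29b-1 lie near 1, Mir29b-2 at 0.49 and Mir29a at -0.21, all inside the range of other genes.

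Markers of other cell types differed between the hearts as well, and the calls below stand beside 24.2% of all genes tested higher in heart 1 and 20.1% higher in heart 2. All 3 erythroid genes (Mir451a, Mir144 and Mir486) were higher in heart 1, with a summed level of 45889 CPM in heart 1 and 7589 CPM in heart 2. Of the 4 endothelial genes, 3 were tested and 2 were higher in heart 1, and the list summed to 99059 CPM in heart 1 and 66887 CPM in heart 2, mostly from Mir126a. The fibroblast list (Mir21a, Mir214 and the miR-199 genes, 4 of 5 detected against 15.2% of all genes) summed to 2599 CPM in heart 1 and 3689 CPM in heart 2. Most of this came from Mir21a and Mir214, and 1 gene was higher in each heart. The cardiomyocyte list summed to 6210 CPM in heart 1 and 8745 CPM in heart 2, mostly from Mir208a and Mir499. Of its 6 tested genes, 1 was higher in heart 1 and 2 were higher in heart 2. Reads with several mapping places are in none of the sums given here. The 2 smooth muscle genes went opposite ways, with Mir143 higher in heart 1 after TMM scaling (but not with library size alone) and Mir145a higher in heart 2. They summed to 43118 CPM in heart 1 and 44232 CPM in heart 2, a ratio of 1.10 after TMM scaling, so the direction of the sum depends on the scaling. The leukocyte genes went both ways, with 2 of 5 higher in heart 1 and 3 higher in heart 2, and summed to 5448 CPM in heart 1 and 6481 CPM in heart 2. The skeletal muscle gene Mir206 stood at 3.37 CPM (7 counts) in heart 1 and 9.63 CPM (17 counts) in heart 2 and did not pass the threshold. The liver gene Mir122, at 57.8 CPM in heart 1 and 31.7 CPM in heart 2, was higher in heart 1. The part of these cell types in the differences of Mir29c, Mir29b-1 and Mir29a was not tested.

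Other miRNAs known from work on cardiac fibrosis give the family's place in this tissue. Of 13 genes other than miR-29 whose miRNAs are reported to limit fibrosis, 11 were detected, against 15.2% of all 2202 genes. In this list only Mir378a had a higher mean level than Mir29a. Mir378a, which lies in the gene of the mitochondrial coactivator Ppargc1b, reached 146001 ± 28746 CPM, Mir30c-2 899 ± 41.4 CPM and Mir30c-1 333 ± 13.6 CPM (SD, n = 2). Mir30c-1 and Mir30c-2 encode 1 mature miR-30c, which is known to repress connective tissue growth factor, so their counts are limited in the same way as those of the 29b genes. Mir24-1, Mir24-2, Mir26a-1 and Mir26a-2 also have 1 mature arm that occurs in another hairpin. That search covered the hairpins of 968 measured genes in the RefSeq table, so other genes of this list may share an arm as well. Reads with several mapping places are in no gene's count, so a gene below Mir29a here need not have a lower level of its mature miRNA. Of 12 tested genes in this list, 2 were higher in heart 1 and 6 were higher in heart 2, against 24.2% and 20.1% of all genes tested; the list had a median log2 ratio of -0.26.

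Of 15 genes whose miRNAs are reported to promote fibrosis or cardiac remodelling, 14 were detected, against 15.2% of all 2202 genes. Mir22 and Mir208a had a higher mean level than Mir29a, while 9 of the 15 were above Mir29c and 12 above each 29b gene. These positions too leave out reads with several mapping places. Mir22, known to be raised in cardiac hypertrophy, reached 12653 ± 3022 CPM, Mir208a, which lies in an intron of the myosin gene Myh6, 4439 ± 891 CPM, and Mir155, a miRNA of activated immune cells, 2903 ± 406 CPM. Of 14 tested genes here, 4 were higher in heart 1 and 6 were higher in heart 2, against the same 24.2% and 20.1%; the list had a median log2 ratio of -0.10. The summed level of the list was 29737 CPM in heart 1 and 29102 CPM in heart 2, a ratio of 1.15 after TMM scaling, so the sum and the median differ in sign.

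The genes whose levels were most like those of each member were found by the distance in log2(CPM + 1) over the 2 libraries, 3 for each member. Nearest to Mir29a were Mir27b (distance 0.14), with 3001 CPM in heart 1 and 3955 CPM in heart 2, then Mir130a (0.30) and Mir208a (0.36). For Mir29c they were Mir339 (0.39), with 330 CPM in heart 1 and 208 CPM in heart 2, then Mir16-2 (0.56) and Mir382 (0.60). Mir6240 (0.29), Mir381 (0.33) and Mir1930 (0.40) were nearest to Mir29b-1, and Mir1955 (0.08), Mir138-2 (0.15) and Mir702 (0.17) to Mir29b-2. No member was among the others' nearest genes, since members were left out of the search, and a likeness over 2 libraries describes the level and little more.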

How the data were processed

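The authors deposited raw counts for the miRNA genes of GENCODE M21 on mm10, per the file headers in the notes beside the tables, in 3 columns (both strands together, the sense strand, the opposite strand), with 4 rows that name no gene above 2202 gene rows. Aligner and counter were not given in the sources used here. Sense counts were used. Rows that name no gene (63.0% of reads in heart 1, 64.6% in heart 2) stayed out of library sizes. All 2202 IDs matched GENCODE M21.

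CPM are counts per 1000000 assigned reads. TMM sizes came from edgeR 4.0.16, size factors from DESeq2 1.42.0. Intervals are exact (Clopper-Pearson, 95%), and both they and the floors cover counting error only, since PCR reads without molecular identifiers are not separate molecules. Both sample records carry 1 donor code, so the spread between libraries may be technical. Genes with 10 or more counts entered the binomial test (scipy 1.17.1, threshold 0.05, prior count 0.5 for ratios). The test was tried on simulated counts that vary by counting error alone, so the trial does not bear on variation between animals. With 1 library on each side, no quasi-likelihood test was possible. A chi-square test over 359 genes (150266, 358 degrees of freedom) found the libraries to differ beyond sampling noise.

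Members and lists were chosen with earlier results of these data known. Genes named are the members, the 3 nearest to each, and up to 3 leading genes of a list, with the gene at 0 and Mir206 and Mir122 as single-gene lists. Mature sequences came from RefSeq (GRCm38.p6), which covers 1018 of the measured genes.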

Additional observations from a re-analysis of the deposited data

How the results depend on the processing

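Of 105 values recomputed under alternative settings, 96 stayed as reported in direction, call or size and 9 did not. A level, share or ratio counted as unchanged when it moved by less than 1 SD of the 2 hearts. With n = 2, either heart alone always meets this, so levels, shares and ratios without a replicate were bound to count as unchanged. Shares and ratios of the members were also fixed under counts without regard to strand. The 96 are therefore no measure of robustness. Counts without regard to strand leave the members' reads as they are and lower the library totals, which gave 5148 CPM for Mir29a, 16.8 CPM for Mir29b-2 and 5507 CPM for the family. Mir29c and Mir29b-1 rose as well under this setting, to 316 and 25.2 CPM, but by less than their SD. Library sizes over all reads gave 1344 CPM for Mir29a, 82.8 CPM for Mir29c, 6.58 CPM for Mir29b-1, 4.40 CPM for Mir29b-2 and 1438 CPM for the family. At a limit of 100 CPM, 2 members were detected. Leaving out each replicate gave 3566 to 4397 CPM for the family. The 3 calls among members held under every scaling, filter and thinning tried; at 50 or more counts Mir29b-2 was not tested. No test could be made without a replicate, since 1 library is then left. No paired analysis was possible because the series has 1 group. Depth limits the precision of Mir29b-1 and Mir29b-2, with 19 to 48 counts per library, and reads that mapped to both genes are absent from these counts.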

Other observations

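The position of Mir29b-1 and Mir29b-2, with 1 mature arm that also occurs in another hairpin and 1 that does not, was shared by 55 of the 1018 measured genes with mature sequences in the RefSeq table. Of these 55 genes, 34 (61.8%) reached 2 CPM in each of the libraries, and they held 1.41% of assigned reads in heart 1 and 1.57% in heart 2. Mirlet7f-2 (6071 CPM on average), Mir92-1 (3092 CPM) and Mir16-1 (1756 CPM), chosen after their values were seen, were the highest. Of the 38 genes with all mature arms in another hairpin, 5 (13.2%) were detected, with 0.202% and 0.209% of assigned reads. Of the 925 genes with no such arm, 262 (28.3%) were detected, with 78.6% of assigned reads in heart 1 and 74.1% in heart 2. The search covered the hairpins of 968 measured genes, so a copy in any other hairpin was not seen. Genes outside the 1018 are in none of these classes. No test was run on these shares.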
